A study of Mus musculus with 6 samples.

Results

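Genes that carry cells through mitosis and cytokinesis were examined in a murine line of acute myeloid leukaemia after exposure to DB2313, a small molecule described as an inhibitor of the transcription factor PU.1. The 60 genes were listed by name, and a gene was measured where at least 1 row of the deposited table was annotated with its symbol alone; its row with the highest mean over the 6 arrays was used. By that rule 57 of the 60 genes were measured, among 22180 genes in all. Ccnb1, Ccnf and Ncapg had no such row. The genes were listed and divided into 10 roles by function, with earlier results of these data known.

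The line was derived from a leukaemic mouse lacking the upstream regulatory element (URE), a distal enhancer of the PU.1 gene Spi1, so both groups share that deletion and low PU.1. Vehicle cultures (3 arrays) received water, and DB2313 cultures (3 arrays) received the compound at 330 nM, each for 24 h, in medium with serum and conditioned supernatants. All arrays come from this line, the labels name the arrays of a group biological replicates, and whether cultures were started separately is not stated, so p-values reflect only how these samples spread, which may be technical. The median log2 signal per array lay between 4.77 and 4.82. Of 11 myeloid and leukaemia markers, 10 had a mean signal above the median of all genes, and the common leukocyte antigen gene Ptprc was near the lower end of the scale, at 3.32 ± 0.12 in vehicle (log2, SD, n = 3). No measured T, NK, B or megakaryocyte marker lay above that median, while 1 of 2 measured erythroid markers and 3 of 7 fibroblast and endothelial markers did. Of the 11 myeloid markers, the lectin receptor gene Cd33 (log2 fold change -1.85, limma adjusted p = 0.00287) and Spi1 (-0.37, limma adjusted p = 0.0342) fell, and the summed log2 signal of the 11 was 98.9 to 100.6 in vehicle and 96.8 to 98.6 with DB2313. Cd33 made up most of that drop. Kit, Mpo (0.29), Prtn3, Ctsg, Csf3r and Cebpa had higher means with DB2313. Ptprc, Elane and Itgam (-0.27) had lower ones, and no marker of this list beside Cd33 and Spi1 passed. The call for Spi1 was lost with each array omitted in turn (limma adjusted p from 0.0648 without vehicle replicate 1 to 0.134 without DB2313 replicate 3), and those for Cd33 and Cdh5 were kept. The sum over the 2 erythroid markers, neither of which passed, was 10.8 to 11.0 in vehicle and 10.4 to 10.6 with DB2313. Of the 7 fibroblast and endothelial markers, the endothelial cadherin gene Cdh5 rose (0.86, limma adjusted p = 0.00222); their sum was 34.8 to 35.2 in vehicle and 35.5 to 36.3 with DB2313, and without Cdh5 it was 28.1 to 28.5 and 27.9 to 28.8, with overlap. The part of these markers in the results was not tested.

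Entry into mitosis is driven by Cdk1 bound to B-type cyclins, which the Cdc25 phosphatases switch on, and by the Polo-like and Aurora kinases. Kinetochores, built on centromeres, attach chromosomes to spindle microtubules, and the spindle checkpoint holds the anaphase-promoting complex until all are attached. Kinesin motors shape the spindle, and the central spindle then directs the small GTPase RhoA to the division plane for cytokinesis. Many genes of this programme are transcribed late in the cell cycle under the MuvB complexes with B-Myb and FoxM1, through a promoter element known as the cell cycle genes homology region (CHR), often near CCAAT boxes.

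Of the 57 measured genes, 2 fell with DB2313, 0 rose and 55 did not pass the test. The genes that fell were Kif20a, a kinesin of the central spindle, 1.29-fold lower, and Ect2, the exchange factor that activates RhoA at the division plane, 1.25-fold lower. Over all genes tested, 0.789% were called lower and 1.02% higher, 1.81% together, by limma at a Benjamini-Hochberg adjusted p of 0.05. Without adjustment, 8 of the 57 had a p under 0.05 with a lower mean, or 14.0%, against 6.16% of all genes. In the other direction 0 did, against 6.51% of all genes. No measured member was called higher in any of 17 alternative analyses, which include a trended, robust prior. In the test without moderation, with the replicate number as a block and with a minimum fold of 1.5, no member was called lower either. The same held with each array left out in turn. In bulk RNA, fewer cells in mitosis and less RNA per cell cannot be told apart.

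The spread of the members was small. Their median log2 fold change was -0.03, against -0.002 for all genes, and 38 of 57 lay below 0 (66.7%, against 50.9% of all genes). Among the 7415 genes at least as bright as the dimmest member, a comparison chosen after the values were seen, 49.4% lay below 0. Of these 7415 genes, 8.93% had an unadjusted limma p under 0.05 with a lower mean and 10.4% with a higher one. The members ranged from -0.39 for Cdc25b to 0.15 for Nek2. For 56 of the 57 (98.2%), the 95% confidence interval lay within a 1.5-fold change in either direction. That share was 95.4% over all genes and 95.7% among the 7415 genes at least as bright as the dimmest member. The exception among the members was Cdc25b, whose interval reached -0.59. The DB2313 arrays lay entirely below the vehicle arrays for 15 of the 57 (9.55% of all genes) and entirely above them for 4 (9.75% of all genes). Among the 7415 genes at least as bright as the dimmest member these shares were 16.0% and 16.9%, against 26.3% of the members lower. The median moved to -0.07 without DB2313 replicate 3.

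**Figure D1:**
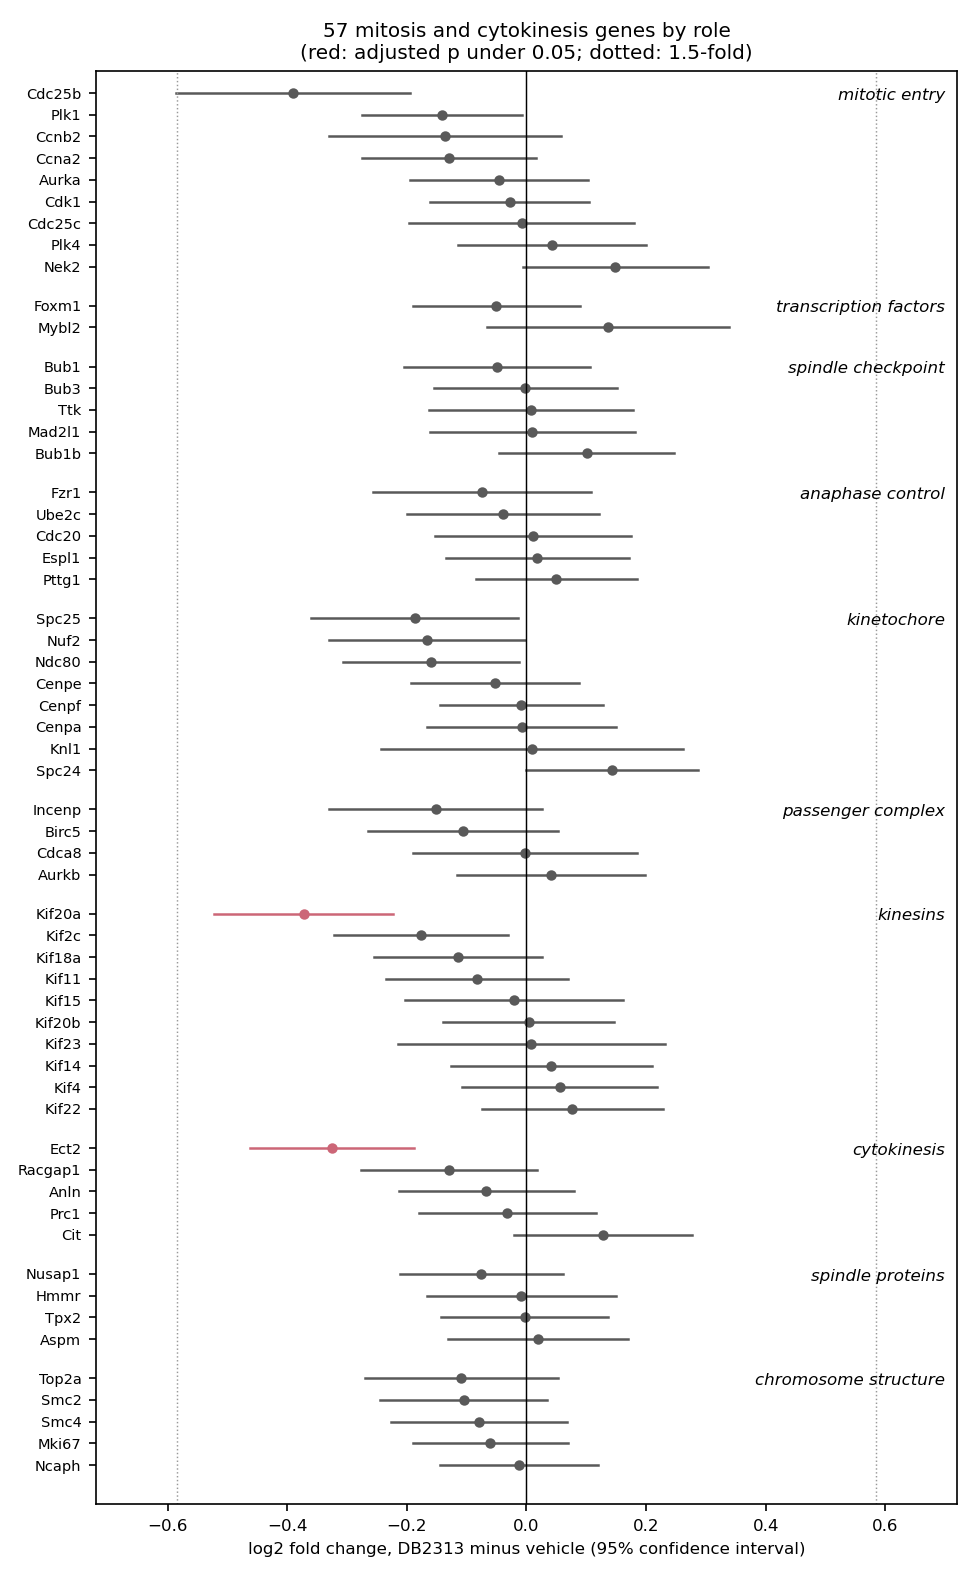
Log2 fold change (DB2313 minus vehicle) of each of the 57 measured genes with its 95% confidence interval, grouped by role and sorted within a role; red marks the 2 genes with an adjusted p under 0.05, and dotted lines mark a 1.5-fold change. Kif20a and Ect2 stand at -0.37 and -0.33, Cdc25b at -0.39 has a wider interval, and most of the other intervals cross 0.

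**Figure D2:**
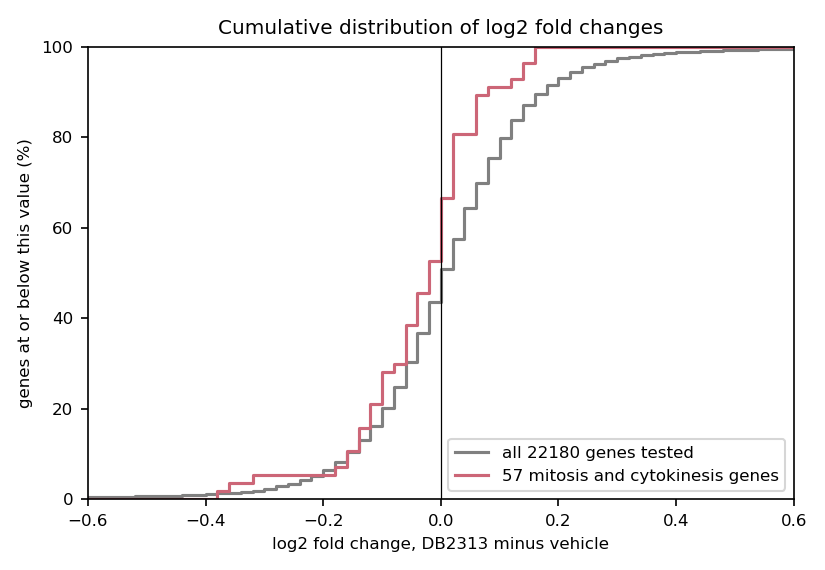
Cumulative share of genes at or below each log2 fold change (DB2313 minus vehicle), for the 57 measured mitosis and cytokinesis genes (red) and all 22180 genes tested (grey). The red curve crosses 0 at 66.7% and the grey curve at 50.9%, and the red curve ends at 0.15.

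The kinesins are microtubule motors, and 10 of them were measured. Kif20a carries the chromosomal passenger complex to the central spindle at anaphase. Its log2 signal was 9.21, 9.24 and 9.26 in the 3 vehicle arrays and 8.81, 8.82 and 8.95 in the DB2313 arrays. Every DB2313 array was thus below every vehicle array, and DB2313 replicate 3 was the least low. The log2 fold change was -0.37 (SE 0.064, 95% confidence interval -0.52 to -0.22, limma adjusted p = 0.0347), which is larger than the spread between replicates. The size held with each array omitted in turn (-0.42 to -0.35), but the call did not, with limma adjusted p from 0.0669 without DB2313 replicate 3 to 0.139 without DB2313 replicate 1. The call was also lost with the replicate number as a block (limma adjusted p = 0.0932).

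Kif2c, which depolymerises microtubules at centromeres to correct wrong attachments, had the next lowest log2 fold change among the kinesins. It read 9.00, 9.02 and 8.98 in vehicle and 8.77, 8.80 and 8.90 with DB2313. The groups did not overlap, but the log2 fold change of -0.18 did not pass (limma unadjusted p = 0.0240, adjusted p = 0.294). Kif18a, which limits microtubule growth so that chromosomes align, had -0.11 and also showed no overlap between groups. The remaining 7 lay between -0.08 for Kif11, the motor that separates spindle poles, and 0.08 for the chromokinesin Kif22. Kif15, which works beside Kif11, had -0.02, the chromokinesin Kif4 had 0.06, and Kif14, a partner of citron kinase, had 0.04. Kif20b, a kinesin of the same family as Kif20a, had 0.003 (interval -0.14 to 0.15), and Kif23, the motor of centralspindlin, had 0.008 (interval -0.22 to 0.23). Of the 10 kinesins, 5 lay below 0 and their median was -0.009.

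Cytokinesis genes followed the same pattern of a single call. Ect2 read 10.18, 10.19 and 10.20 in vehicle and 9.84, 9.82 and 9.92 with DB2313. Its vehicle values were among the tightest of the members, and each DB2313 array was lower than all of them. The log2 fold change was -0.33 (SE 0.059, interval -0.46 to -0.19, limma adjusted p = 0.0427). The size ran from -0.35 to -0.31 with each array omitted in turn, while the limma adjusted p rose to between 0.101 (without DB2313 replicate 3) and 0.160 (without DB2313 replicate 2). The call was also lost after quantile normalization (limma adjusted p = 0.0568), after median centring (0.0502) and with the replicate block (0.127).

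The centralspindlin subunit that recruits Ect2, Racgap1, read 9.01, 8.96 and 9.07 in vehicle and 8.91, 8.82 and 8.92 with DB2313. Its groups did not overlap, and its log2 fold change of -0.13 did not pass (limma adjusted p = 0.458). Anln, which encodes the ring scaffold anillin, had -0.07, and Prc1, which bundles the microtubules of the central spindle, had -0.03. Cit, encoding citron kinase, had 0.13 (interval -0.02 to 0.28), with DB2313 arrays all above vehicle, and did not pass.

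The promoter of Ect2 is shown because Ect2 passed the test and had an entry among the RefSeq promoters (GRCm38.p6), whose table held 48 of the 57 measured genes. The run below covers the 250 bases upstream of the first of 2 listed start sites, on the minus strand of chr3:27153879-27154128, written 5′ to 3′. Capitals mark the CHR letters TTTGAA and the CCAAT boxes.
Ect2: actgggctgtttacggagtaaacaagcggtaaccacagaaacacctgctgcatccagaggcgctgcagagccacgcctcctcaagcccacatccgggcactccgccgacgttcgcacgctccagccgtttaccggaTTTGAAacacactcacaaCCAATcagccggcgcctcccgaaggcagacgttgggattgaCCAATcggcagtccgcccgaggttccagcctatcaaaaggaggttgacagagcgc

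In that run the CHR letters began 114 bases upstream of the start site, and CCAAT began 96 and 55 bases upstream. No match overlapped another. Beyond the run shown, the 300-base window of Ect2 also held CCAAT from base 2 and TTTGAA from base 40 after the start site. The core letters of PU.1 sites, GAGGAA or TTCCTC on the other strand, were not in this window. Over windows of 300 bases around the start site, with 1 window per gene, TTTGAA or TTCAAA occurred in 33 of the 48 members (68.8%) and in 18.1% of all 27025 promoters. CCAAT or ATTGG occurred in 32 of the 48 (66.7%), against 37.9% of all promoters. The PU.1 core occurred in 13 of the 48 (27.1%), against 28.3%. The median log2 fold change was -0.02 for the 33 members with the CHR letters (22 below 0) and -0.05 for the 15 without them (9 below 0). For the 13 members with the PU.1 core it was -0.03 (11 below 0), and for the 35 without that core -0.02 (20 below 0). These differences were not tested. These matches describe letters and not bound sites.

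**Figure D3:**
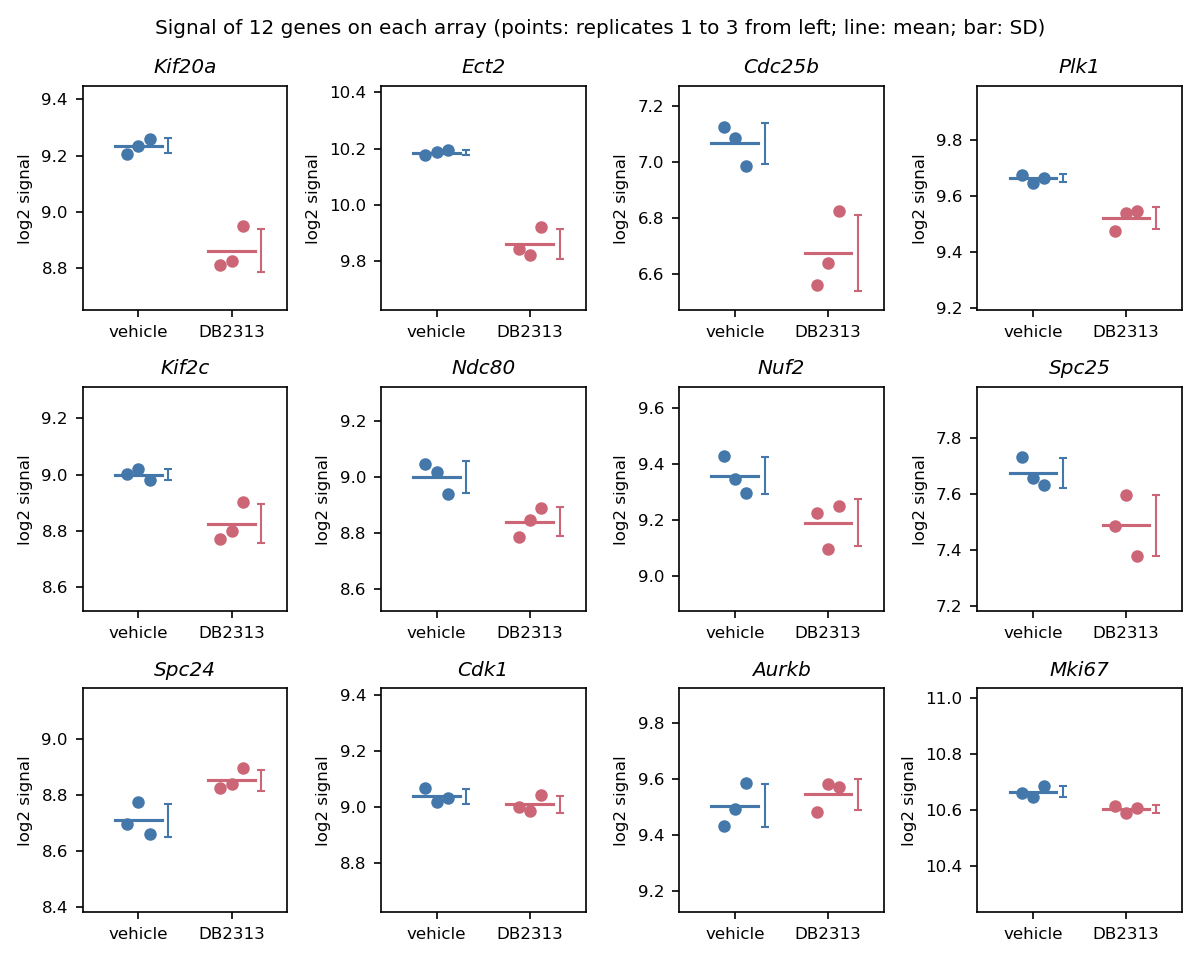
Log2 signal of 12 genes on each array (points: replicates 1 to 3 from left to right; line: mean; bar: SD), vehicle in blue and DB2313 in red, on axes that all span the same log2 range. Kif20a, Ect2 and Cdc25b show the widest gaps between groups, Spc24 lies higher while Ndc80, Nuf2 and Spc25 lie lower, and the groups of Cdk1 and Aurkb overlap.

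Among the kinases, cyclins and phosphatases of mitotic entry, none of the 9 measured genes passed. Cdc25b, a phosphatase that activates Cdk1 at the start of mitosis, had the lowest log2 fold change of all members. It read 7.13, 7.09 and 6.98 in vehicle and 6.56, 6.64 and 6.82 with DB2313. The groups did not overlap, but the DB2313 values spread more widely (SD 0.13) than those of Kif20a (SD 0.08). The log2 fold change of -0.39 (SE 0.084, interval -0.59 to -0.19) missed the threshold (limma adjusted p = 0.0790), and it passed when genes dimmer than the median were dropped (0.0233), when 32 was added on the linear scale (0.0345) and with a trended, robust prior (0.0182).

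Plk1, the Polo-like kinase of mitotic entry and cytokinesis, read 9.68, 9.65 and 9.66 in vehicle and 9.48, 9.54 and 9.55 with DB2313. Each DB2313 array was below the vehicle arrays, with a log2 fold change of -0.14 (limma unadjusted p = 0.0404, adjusted p = 0.365). Cdk1 itself read 9.07, 9.02 and 9.03 in vehicle and 9.00, 8.99 and 9.04 with DB2313. Its groups overlapped, and its interval ran from -0.16 to 0.10. The cyclin genes Ccna2 (-0.13) and Ccnb2 (-0.14), whose products activate Cdk1, and Aurka (-0.05), encoding the Aurora kinase of spindle poles, did not pass. Cdc25c, a second phosphatase of Cdk1, had -0.008. Nek2, a kinase of centrosome separation, had the highest log2 fold change of all members. It read 7.22, 7.27 and 7.27 in vehicle and 7.48, 7.41 and 7.31 with DB2313. All its DB2313 arrays were above vehicle (log2 fold change 0.15, limma adjusted p = 0.418). Plk4, the kinase of centriole duplication, had 0.04.

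Both transcription factors of the programme were measured and neither passed. Foxm1 read 7.59, 7.54 and 7.57 in vehicle and 7.46, 7.52 and 7.57 with DB2313, with overlapping groups (log2 fold change -0.05, limma adjusted p = 0.799). Mybl2, encoding B-Myb, read 9.05, 9.09 and 9.30 in vehicle and 9.37, 9.19 and 9.28 with DB2313. Its groups overlapped too, with 0.14 in the brighter of its 2 rows (interval -0.07 to 0.34) and -0.06 in the other.

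None of the 5 spindle checkpoint genes passed, and their median log2 fold change was 0.008. Bub1, the kinase that recruits checkpoint proteins to kinetochores, read 8.31, 8.41 and 8.34 in vehicle and 8.22, 8.36 and 8.34 with DB2313, with overlap. Its relative Bub1b, encoding BubR1 of the mitotic checkpoint complex, read 8.67, 8.57 and 8.69 in vehicle and 8.71, 8.74 and 8.78 with DB2313. Here all DB2313 arrays were above vehicle, by 0.10 on the log2 scale (interval -0.05 to 0.25, limma adjusted p = 0.576). Mad2l1 (0.01), Bub3 (-0.002) and the kinase gene Ttk (0.008) lay close to 0, with intervals within -0.16 to 0.18.

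Genes of the anaphase-promoting complex and its substrates gave intervals between -0.26 and 0.18, and none of the 5 passed. Fzr1, encoding the coactivator Cdh1 of mitotic exit, read 9.14, 9.28 and 9.33 in vehicle and 9.07, 9.24 and 9.21 with DB2313. Pttg1, encoding securin, the inhibitor of separase, read 6.56, 6.54 and 6.59 in vehicle and 6.61, 6.58 and 6.65 with DB2313. Groups overlapped for both, at log2 fold changes of -0.07 and 0.05. The coactivator gene Cdc20 had 0.01, the E2 enzyme gene Ube2c -0.04 and the separase gene Espl1 0.02.

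The 8 centromere and kinetochore genes held 3 of the 8 members with an unadjusted limma p under 0.05, all lower. That is 37.5% of this role, against 6.16% of all genes and 8.93% of the 7415 genes at least as bright as the dimmest member. None passed the adjusted test. Of 27 other kinetochore and centromere genes, 0 had such a p with a lower mean and 2 with a higher one. The 3 lower members encode subunits of the NDC80 complex, which binds spindle microtubules. Ndc80 read 9.05, 9.02 and 8.94 in vehicle and 8.79, 8.85 and 8.89 with DB2313 (log2 fold change -0.16, limma adjusted p = 0.356). Nuf2 read 9.43, 9.35 and 9.30 in vehicle and 9.22, 9.10 and 9.25 with DB2313 (-0.17, limma adjusted p = 0.384). Spc25 read 7.73, 7.66 and 7.63 in vehicle and 7.49, 7.60 and 7.38 with DB2313 (-0.19, limma adjusted p = 0.357). In each of the 3 the groups did not overlap.

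The remaining subunit, Spc24, named after its values were seen, went the other way, at 8.70, 8.77 and 8.66 in vehicle and 8.83, 8.84 and 8.89 with DB2313. Its DB2313 arrays were all above vehicle, with 0.14 (interval -0.002 to 0.29, limma adjusted p = 0.401). The centromeric histone gene Cenpa (-0.008), the kinetochore motor gene Cenpe (-0.05) and Cenpf (-0.009) did not pass. Knl1, the scaffold of the outer kinetochore, had the widest vehicle spread of the members, with 9.07, 8.66 and 8.77 (SD 0.21), against 8.91, 8.76 and 8.85 with DB2313. Its interval, -0.24 to 0.26, was accordingly the widest of this role.

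The chromosomal passenger complex corrects attachments and later acts at the central spindle, where Kif20a delivers it. Its kinase gene Aurkb read 9.43, 9.49 and 9.59 in vehicle and 9.48, 9.58 and 9.57 with DB2313, with overlapping groups and an interval from -0.12 to 0.20. Incenp, the scaffold, read 9.00, 8.79 and 8.86 in vehicle and 8.67, 8.71 and 8.80 with DB2313. Birc5, encoding survivin, read 7.64, 7.66 and 7.72 in vehicle and 7.46, 7.61 and 7.62 with DB2313. The groups overlapped for Incenp (log2 fold change -0.15) and not for Birc5 (-0.11), and neither passed (limma adjusted p = 0.477 and 0.587). Cdca8, encoding borealin, had -0.002.

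All 5 measured genes of chromosome structure lay below 0, with a median log2 fold change of -0.08, and none passed. Top2a, the topoisomerase that untangles sister chromatids, read 10.05, 9.94 and 9.92 in vehicle and 9.78, 9.87 and 9.93 with DB2313. Mki67, encoding the proliferation antigen Ki-67 of the chromosome surface, read 10.66, 10.65 and 10.69 in vehicle and 10.62, 10.59 and 10.61 with DB2313. Smc2, a condensin core subunit, read 9.06, 9.08 and 9.07 in vehicle and 8.90, 8.99 and 9.01 with DB2313. The groups overlapped for Top2a (-0.11) and were apart for Mki67 (-0.06) and Smc2 (-0.11), with limma adjusted p from 0.535 to 0.727 for these 3. The intervals of all 5 crossed 0, those of the condensin genes Smc4 (-0.08) and Ncaph (-0.01) among them.

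The 4 spindle-associated genes had a median absolute log2 fold change of 0.01, and none passed. Nusap1, encoding a microtubule bundling protein, read 7.50, 7.42 and 7.45 in vehicle and 7.34, 7.40 and 7.40 with DB2313, just apart between groups (-0.08). Aspm, encoding a protein of spindle poles, read 7.05, 7.14 and 7.19 in vehicle and 7.10, 7.14 and 7.18 with DB2313, with overlap (0.02). Tpx2, which activates Aurora A on the spindle, had -0.003, and Hmmr, a microtubule-binding partner of Tpx2, had -0.009.

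The arrays of a group were not equally far from the other group. After subtracting each gene's mean over the 6 arrays, the median over the 57 members was 0.04, 0.005 and 0.02 on the vehicle arrays and -0.06, -0.02 and 0.01 on the DB2313 arrays. DB2313 replicate 3 thus lay among the vehicle arrays, while replicates 1 and 2 lay below all of them. The same median over all genes stayed between -0.02 and 0.007 on every array. By role, the DB2313 arrays lay entirely below the vehicle arrays for mitotic entry, for kinetochore, for cytokinesis and for chromosome structure genes, and overlapped them for the other 6 roles.

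**Figure D4:**
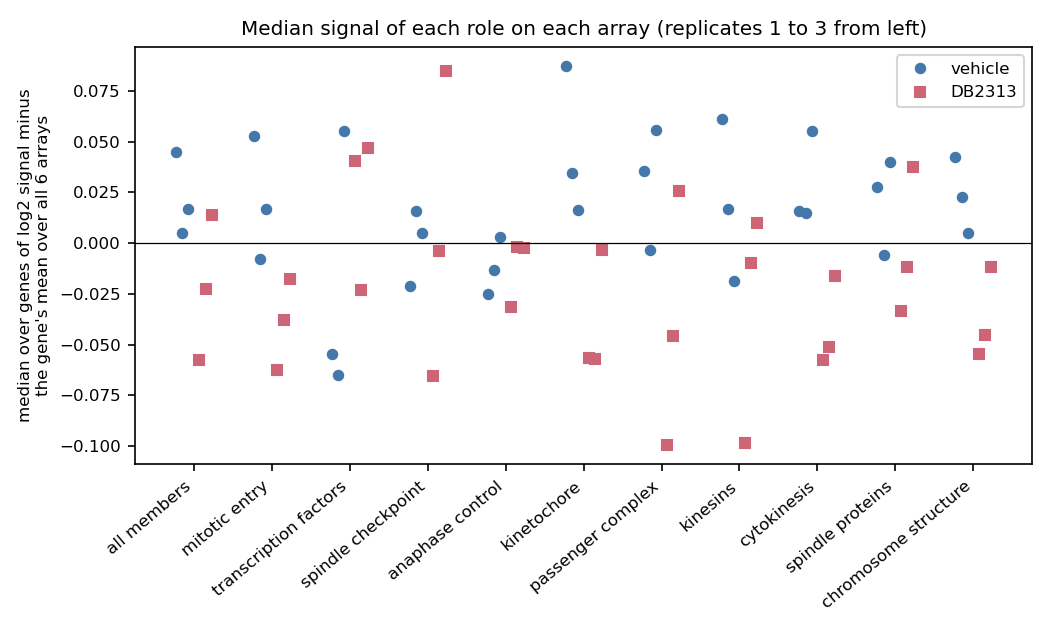
Median over the genes of each role of the log2 signal minus the gene's own mean over the 6 arrays, for vehicle (blue circles) and DB2313 (red squares), with replicates 1 to 3 from left to right. For all members together DB2313 replicate 3, at 0.01, lies within the range of the vehicle arrays, 0.005 to 0.04.

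Other genes of the mitotic programme were taken from lists written by function. Of 111 measured genes on 4 such lists, 0 passed by limma, against 1.81% of all genes tested. At an unadjusted limma p under 0.05, 6 had a lower mean (5.41%, against 6.16% of all genes). A higher mean was seen for 9 (8.11%, against 6.51% of all genes). The median log2 fold change of the 111 was -0.005, with 58 of 111 below 0 (52.3%, against 50.9% of all genes). Among 27 other kinetochore and centromere genes, Ska1, which tracks microtubule ends, had 0.43 (limma adjusted p = 0.0632) and Cenpp 0.25 (0.253). Ska1 passed as higher under both signal filters, with the offset of 32 and with the trended, robust prior. Of 35 spindle and cytokinesis genes, Depdc1a had -0.41 (limma adjusted p = 0.115) and Kif24, a kinesin of the centriole, 0.23 (0.133). Of 21 cohesin and chromosome genes, Esco2, an acetyltransferase of cohesin, had -0.23 (limma adjusted p = 0.290) and Sgo2a, a shugoshin that protects it, -0.30 (0.316). Of 28 genes of mitotic entry and exit, Wee1, the kinase that holds Cdk1 inactive, had 0.23 (limma adjusted p = 0.201) and Anapc7 0.21 (0.292). The filter at the 0.25 quantile called 1 gene of these lists, as higher, against 529 over all genes. The filter at the median called 2 as lower and 3 as higher (799 over all genes). With the offset of 32, 0 were called lower and 5 higher (830 over all genes). The trended, robust prior called 2 lower and 3 higher (920 over all genes). The test without moderation and the replicate block called 0 of the 111, against 70 and 190 over all genes.

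Among 27 measured cell cycle inhibitors and members of the DREAM complex, which represses these genes in resting cells, 0 passed by limma. At an unadjusted limma p under 0.05, 3 were lower (11.1%, against 6.16% of all genes) and 1 was higher (3.70%, against 6.51%). Cdkn2c, encoding the inhibitor p18, had -0.39 (limma adjusted p = 0.0774), and Cdkn1a, encoding p21, had -0.50 (0.0776). In the alternative analyses Cdkn1a passed as lower in 3, Cdkn2c in 4 and E2f8, a repressor of the E2F family, in 3, while Rbl1, encoding the DREAM subunit p107, passed as higher in 2; E2f8, Rbl1 and Ccng2 were named after their values were seen. The replicate block called 1 of the 27, the cyclin gene Ccng2 (-0.48), and the test without moderation 0.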

How the data were processed

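Total RNA of 6 samples was column-purified, biotin-labelled with a whole-transcript kit and hybridised to Affymetrix arrays, per the labels' protocols. The authors used Affymetrix Expression Console, per the submitters' processing notes; no source used here gives the background correction, probe summary or build. The deposited values are on the log2 scale, as judged from their range, with nearly equal quartiles, so a shift in total RNA would not show. Of 41345 rows, 23521 had 1 gene symbol, 1814 several and 16010 none; the last 2 kinds were not tested. The brightest row per gene left 22180 genes. All 57 measured members lay above the median signal of 5.17. DB2313 and vehicle were compared with limma 3.58.1 in R 4.3.3 (lmFit, eBayes, 2-sided, Benjamini-Hochberg over all genes at 0.05, no minimum fold). A check of this fit on simulated arrays required recovery only of changes far larger than those of the members. Its recovery of smaller changes is not given here. The number of arrays limits precision. Values on every array are given for genes called, for Cdk1, Plk1, Aurkb, Foxm1, Top2a and Mki67, and per role for the 2 largest absolute changes and the smallest p; of other lists, the 2 smallest p where none passed. Members and lists were chosen with earlier results of these data known. Alternatives were 2 signal filters, quantile normalization, median centring, an offset of 32, a trended robust prior, no moderation, the replicate block, the mean of rows, all rows, each array left out and a minimum fold of 1.5.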

Additional observations from a re-analysis of the deposited data

How the results depend on the processing

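The number of genes called over all genes, 401, went to 799 under the filter at the median signal, 830 with the offset of 32, 920 with the trended, robust prior, 70 without moderation, 18 with a minimum fold of 1.5 and between 136 and 187 when 1 array was left out. The number of members called lower, 2, went to 1 after quantile normalization and after median centring (Kif20a), and to 0 without moderation, with a minimum fold of 1.5 and in each of the 6 settings without 1 array (lowest 0, highest 0). With the replicate block 190 genes and 0 members were called. Over all genes the correlation of same-numbered arrays' deviations was 0.02, 0.08 and 0.008, and the numbers were not taken as pairs. A correlation over all genes cannot exclude pairing in some of them. Ccng2, picked after its values were seen, kept 1 order of replicates, at 6.45, 7.22 and 6.61 in vehicle and 5.96, 6.75 and 6.12 with DB2313. Cdkn1a, Cd33, Mpo and Csf3r, picked in the same way, also kept their order of replicates between groups, while Cdk1 did not. The median log2 fold change of the members, -0.03, lay between -0.066 (without DB2313 replicate 3) and -0.023 (without DB2313 replicate 1) when 1 array was left out. Members with a call in any setting were Kif20a (8 of 16), Ect2 (6 of 16) and Cdc25b (3 of 16), always lower; of the other members 19 changed sign in some setting, the largest of them with an absolute log2 fold change of 0.04. Cdkn1a and Cdkn2c were called lower under the filter at the median signal, with the offset and with the trended, robust prior, and Cdkn2c also with the lower filter. The causes were not tested.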

Other observations

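Differences within an array were examined for related genes, chosen after their values were seen and given without a test. Kif20a minus Kif20b was 0.41 ± 0.06 on the vehicle arrays and 0.03 ± 0.08 after DB2313 (SD on the log2 scale, n = 3), and did not overlap between groups. Cdc25b minus Cdc25c was 0.10 ± 0.08 in vehicle and -0.29 ± 0.03 with DB2313, on 3 arrays each. Spc24 minus the mean of Ndc80, Nuf2 and Spc25, the other subunits of its complex, was 0.03 ± 0.07 in vehicle and 0.35 ± 0.04 with DB2313, with all 3 DB2313 arrays above the 3 vehicle arrays. Ect2 minus Racgap1 was 1.17 ± 0.05 and 0.98 ± 0.04.

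Rows annotated with several symbols stayed out of the test. The row shared by Ccnf, encoding cyclin F, and Mir5134 read 7.61, 7.68 and 7.68 in vehicle and 7.62, 7.63 and 7.62 with DB2313. The row shared by Ncapg, a condensin subunit, and Lcorl read 8.72, 8.58 and 8.53 in vehicle and 8.54, 8.54 and 8.57 with DB2313. Both rows overlapped between groups, as did a row shared by Oip5 and Nusap1 and 2 rows shared by Top2a and Taf1d.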
